A study of Homo sapiens with 12 samples.

Results

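The transcripts described here encode 10 proteins that make microRNAs and carry out microRNA silencing: DROSHA, DGCR8, XPO5, DICER1, TARBP2, AGO1, AGO2, AGO3, TNRC6A and TNRC6B. They were chosen by symbol, through the Ensembl identifier of each row, and all 10 were found among the 12725 genes of the deposited table. They were followed in Ramos, a human B cell line from a Burkitt lymphoma, in which either miR-28 or a scrambled sequence was expressed from the doxycycline-inducible lentiviral vector pTRIPZ. Every library, the scramble ones included, came from cells that carried the vector, were selected in 0.4 µg/ml puromycin, received 0.5 µg/ml doxycycline for 2 days and were sorted as RFP+. There were 6 scramble and 6 miR-28 libraries of polyadenylated RNA, in 6 sample pairs, with pairs 1 to 3 in library batch 1 and pairs 4 to 6 in batch 2. The transduction label reads XENO 1 in pairs 1, 4 and 5, XENO 2 in pairs 2 and 6, and carries no XENO number in pair 3, and its meaning is not given. In the sample descriptions, pairs 4 and 5 carry the name of pair 1 and pair 6 that of pair 2, with bis or tris added. What these additions mean is not given either. Pairs with the same label or name may share cells, so the 6 pairs may not be independent. The p-values therefore cover only the spread of these samples, which may be partly technical.

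A microRNA is cut from its primary transcript in the nucleus by the Microprocessor, in which the nuclease DROSHA works with the RNA-binding protein DGCR8. The hairpin precursor leaves the nucleus with exportin-5, is cut again by DICER1, which binds TARBP2, and one strand of the product is held by an Argonaute protein. Argonaute recruits a TNRC6 (GW182) protein, which brings deadenylases to the target messenger RNA. An induced microRNA passes through this machinery, and the question put to the data was whether the machinery's own transcripts differed between miR-28 and scramble libraries.

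The induced hairpin gives the mature strands miR-28-5p and miR-28-3p. The RefSeq sequence of miR-28-3p (GRCh38.p14, chr3:188688834-188688855, plus strand) is shown with its seed, bases 2 to 8, in capitals, because the seed is what pairs with a target. Among the 10 transcripts, the longest annotated 3' UTR of TNRC6B held the 1 match to the whole miR-28-3p seed (ATCTAGT on the transcript), at base 10170 of 12567, and the site is shown with that match in capitals.
hsa-miR-28-3p: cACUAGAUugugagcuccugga
TNRC6B 3' UTR site, chromosome 22, plus strand: cttccagcaATCTAGTgccagggta
A match of this kind was present in 7.95% of 10768 measured genes with an annotated 3' UTR, and in 21.8% of the 2155 genes of the class with the longest 3' UTRs, which includes TNRC6B. These counts are for miR-28-3p alone. A shorter match, to its bases 2 to 7 followed by A (TCTAGTA), was found once in AGO3, whose 3' UTR has 16755 bases, and once in DROSHA. The share of all measured genes with this shorter match was not counted. The 3' UTRs of the other 7 genes held neither string. Such a match describes letters in an annotated UTR and does not show a site in use.

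The libraries held 15404730 to 37876636 reads over the measured genes. Levels are given in CPM, the read count of a gene relative to the library total after TMM scaling, the unit of the deposited table, and 3 reads were worth 0.0830 to 0.181 CPM. The least read member, AGO2, had 190 to 522 reads per library, and the most read, DICER1, 2952 to 6420. MIR28 itself had 0 reads in all scramble libraries and 19 to 76 in the miR-28 ones, as the labels give, although polyadenylated RNA does not measure the mature strand. All 10 B cell markers were measured. Of 8 T cell markers 4 were measured, with summed levels of 10.97 to 64.0 CPM in scramble and 12.1 to 53.3 in miR-28 libraries, while CD3D, CD3E, CD3G and CD247 were not among the measured genes. None of the 6 myeloid or 5 epithelial markers was among the measured genes, and of 5 stromal and endothelial ones PECAM1 was. In bulk RNA, fewer cells of a kind and less RNA per cell cannot be told apart.

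No transcript of the machinery passed the test between miR-28 and scramble libraries, and the levels of every member overlapped between the groups. The log2 fold changes lay between -0.11 for AGO2 and AGO1 and 0.03 for DGCR8. With limma on log2(CPM + 1) and a term for library batch, 0 of 10 members had a Benjamini-Hochberg adjusted p under 0.05, against 0.0157% of all genes. None reached an unadjusted p under 0.05 either, against 0.33% of all genes, and the smallest was 0.490 for AGO1 in limma. With the sample pair as a block, which removes the differences shared by both libraries of a pair, limma again called 0 of 10 members, against 0.0236% of all genes. None had an unadjusted p under 0.05 in that limma fit, against 7.3% of all genes, and the smallest was 0.294, again for AGO1. On reads recovered from the table, edgeR called 0 members with batch, where it called 0% of all genes, and 0 with the pair block, where it called 0.00786%. DESeq2 called 0 members with batch (0.0157% of all genes) and 0 with the pair block (0.165%). In neither edgeR nor DESeq2 did any member have an unadjusted p under 0.05. Of all 12725 genes, 45 did in edgeR with batch and 883 with the block. In DESeq2, 78 did with batch and 1051 with the block.

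**Figure D1:**
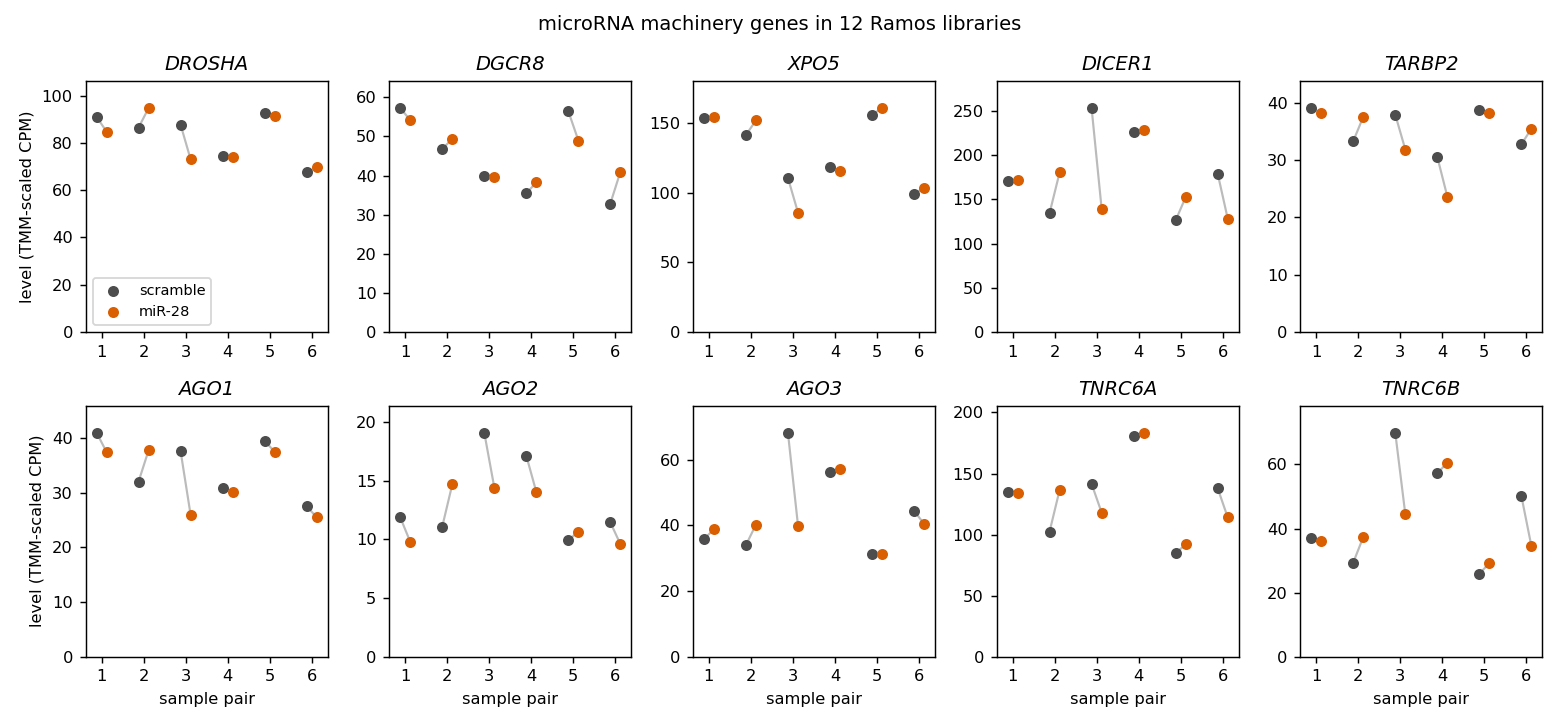
Level of each of the 10 genes in TMM-scaled CPM (y axis, from 0) for the 6 sample pairs (x axis), with scramble libraries in grey, miR-28 libraries in orange and a line joining the libraries of a pair. DICER1 differed in opposite directions, with 253 CPM in scramble and 139 in miR-28 in pair 3, but 134 and 181 in pair 2.

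The absence of a call still allowed changes of limited size. With the pair block, the 95% interval of the fold of (CPM + 1), miR-28 over scramble, ran from 0.877 to 1.08 for DROSHA and from 0.738 to 1.17 for DICER1. The lowest bound of the 10 belonged to DICER1 and so did the highest. With batch in place of the block, where pair differences stay in the error, the intervals were wider for all 10, and that of TNRC6B ran from 0.628 to 1.38.

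**Figure D2:**
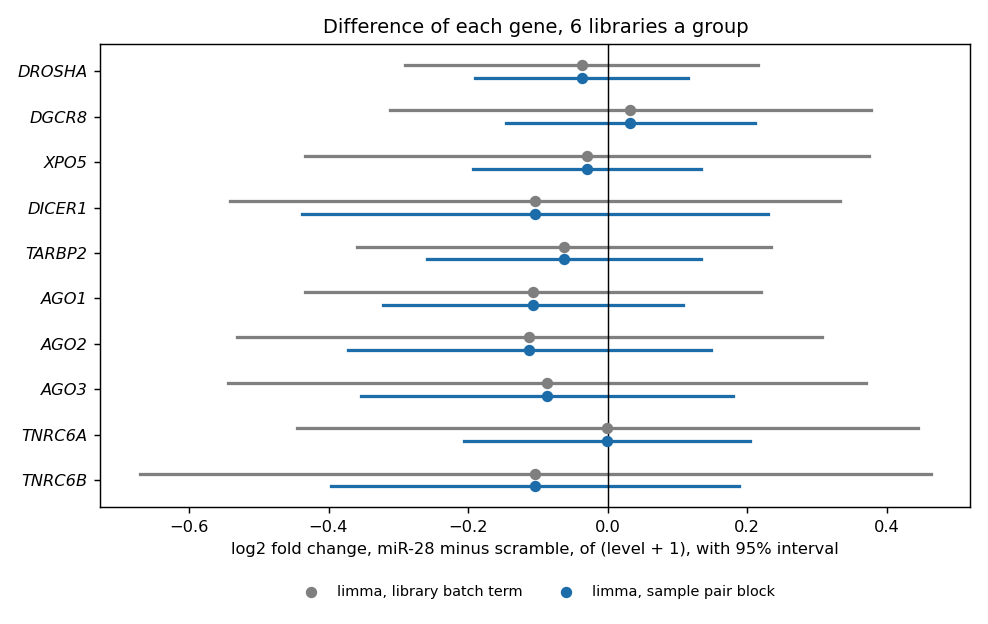
Log2 fold change of (CPM + 1), miR-28 minus scramble (x axis), for each gene (y axis) with its 95% interval from limma, in grey with a batch term and in blue with the sample pair as a block. Every interval includes 0, and for each gene the blue one is shorter.

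Both Microprocessor genes kept overlapping levels, and DROSHA varied least of the set, with an SD over the 12 libraries of 0.174 on the log2 scale. DROSHA (ENSG00000113360, GRCh38 chromosome 5, 31400497 to 31532196, minus strand) encodes the nuclease that cuts the primary transcript. Its level was 67.5 CPM in the lowest, 87.0 in the median and 92.8 in the highest scramble library, and 69.6, 79.4 and 94.7 CPM in miR-28 libraries. The ranges lay almost on top of each other, and the lowest library of each group was that of pair 6. The means were 83.3 ± 10.1 and 81.2 ± 10.5 CPM (SD, 6 libraries each), with a log2 fold change of -0.04 (SE 0.116 with batch, 0.0685 with the block). DGCR8 (ENSG00000128191, chromosome 22, 20080232 to 20111877, plus strand), its RNA-binding partner, measured 32.9, 43.4 and 57.3 CPM in the lowest, median and highest scramble library, and 38.3, 45.0 and 54.2 CPM in miR-28 libraries. Pairs 1, 2 and 5 held the 3 highest libraries of each group. DGCR8 was the 1 member with a mean difference above 0, at 0.03 on the log2 scale (SE 0.158 with batch, 0.0802 with the block), and was lower in 3 and higher in 3 of 6 pairs. Exons of TRMT2A and of AC006547.2 on the opposite strand, and of MIR1306 and MIR3618, overlapped 9.58% of its exon bases, so its counts are less certain than those of DROSHA, whose exons overlapped no other gene. The ratio of DGCR8 to DROSHA in CPM ranged from 0.456 to 0.630 in scramble and from 0.517 to 0.639 in miR-28 libraries. DGCR8 protein is known to bind hairpins in its own messenger RNA, which the Microprocessor cuts, and MIR1306 and MIR3618 are annotated on those exons.

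Nuclear export was represented by XPO5 (ENSG00000124571, chromosome 6, 43522330 to 43576075, minus strand), the exportin that carries hairpin precursors to the cytoplasm. Its level was 98.9, 129.8 and 156 CPM in the lowest, median and highest scramble library and 85.8, 134 and 161 CPM in miR-28 libraries. The miR-28 library of pair 3 was the lowest of all 12, and both libraries of pair 5 were the highest of their groups. The log2 fold change was -0.03 (SE 0.186 with batch, 0.0735 with the block), with lower values in 2 of 6 pairs. For XPO5 the SD of the pair means was 0.310 and that of the differences within pairs 0.170 on the log2 scale, so pairs differed from each other more than their libraries did. POLR1C on the opposite strand overlapped 4.08% of its exon bases.

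DICER1 had the widest differences within pairs of the 10 members, while those of its partner TARBP2 were narrower. DICER1 (ENSG00000100697, chromosome 14, 95086228 to 95158010, minus strand), the nuclease that trims the precursor to a duplex, measured 126, 175 and 253 CPM in the lowest, median and highest scramble library and 128, 162 and 229 CPM in miR-28 libraries. It was lower with miR-28 in pairs 3 and 6 and higher in the other 4 pairs. The means were 182 ± 50.05 and 167 ± 36.1 CPM (SD, 6 libraries each), and the log2 fold change was -0.10 (SE 0.201 with batch, 0.150 with the block). Without pair 3 the value turned to 0.05 in limma with batch. Without pairs 3 and 6 it was 0.18, with a limma unadjusted p of 0.430 with batch. In a fit with the block, added after the values were seen, the limma unadjusted p without these pairs was 0.0444 and the adjusted p 0.894. In that limma fit 690 of 12725 genes had an unadjusted p under 0.05. Leaving out these pairs removed every pair in which DICER1 was lower. The differences of DICER1 within pairs had an SD of 0.482 on the log2 scale, and its pair means had an SD of 0.254. A difference of libraries spreads more than their mean even when the libraries are unrelated. These SDs therefore do not show more spread within pairs than between them. TARBP2 (ENSG00000139546, chromosome 12, 53500921 to 53506431, plus strand), the double-stranded RNA-binding partner of DICER1, measured 30.6, 35.6 and 39.1 CPM in the lowest, median and highest scramble library and 23.6, 36.5 and 38.2 CPM in miR-28 libraries. The miR-28 library of pair 4 was the lowest of all 12, and the rest of the miR-28 libraries lay between 31.8 and 38.2 CPM. Its log2 fold change was -0.06 (SE 0.136 with batch, 0.0881 with the block), and its differences within pairs had an SD of 0.204. PRKRA, which encodes PACT, another DICER1 partner, had a log2 fold change of -0.02 (SE 0.0579 with the block), and its differences within pairs had an SD of 0.0644 on the log2 scale, smaller than for any of the 10 members.

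The 3 Argonaute genes had mean differences of similar size, and none passed the test. AGO1 (ENSG00000092847, chromosome 1, 35869808 to 35930528, plus strand), an Argonaute without the slicing activity of AGO2, measured 27.5, 34.8 and 41.0 CPM in the lowest, median and highest scramble library and 25.5, 33.8 and 37.8 CPM in miR-28 libraries. It was lower with miR-28 in 5 of 6 pairs, with pair 2 the exception, and its log2 fold change was -0.11 (SE 0.150 with batch, 0.0962 with the block). Without pair 3 that value was -0.02, and without pairs 3 and 6 it was -0.003. AGO1 had the smallest p of the set, with a limma adjusted p of 0.684 with the block. AGO2 (ENSG00000123908, chromosome 8, 140520156 to 140635619, minus strand), the Argonaute that can slice a fully paired target, measured 9.92, 11.7 and 19.1 CPM in the lowest, median and highest scramble library and 9.58, 12.3 and 14.7 CPM in miR-28 libraries. The scramble libraries of pairs 3 and 4, at 19.1 and 17.1 CPM, were the highest of the 12. The log2 fold change of AGO2 was -0.11 (SE 0.192 with batch, 0.116 with the block), with lower values in 4 of 6 pairs. It was -0.01 without the scramble library of pair 3, -0.02 without that of pair 4 and -0.21 without pair 2. AGO3 (ENSG00000126070, chromosome 1, 35930718 to 36072500, plus strand) measured 31.4, 40.2 and 68.3 CPM in the lowest, median and highest scramble library and 31.4, 40.1 and 57.2 CPM in miR-28 libraries. Its medians differed by less than 1 CPM, and its mean difference of -0.09 (SE 0.210 with batch, 0.120 with the block) included 68.3 CPM in the scramble and 39.95 CPM in the miR-28 library of pair 3. Without pair 3 the log2 fold change of AGO3 was 0.05.

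The TNRC6 genes, whose proteins link Argonaute to deadenylation, differed more among libraries than between groups. TNRC6A (ENSG00000090905, chromosome 16, 24610209 to 24827632, plus strand) measured 84.9, 136 and 181 CPM in the lowest, median and highest scramble library and 92.0, 126 and 184 CPM in miR-28 libraries. Pair 4 gave the highest and pair 5 the lowest level in both groups. The group means were 130.5 ± 33.6 and 129.6 ± 30.9 CPM (SD, 6 libraries each), and the 95% interval of the log2 fold change with the block was -0.21 to 0.20. TNRC6B (ENSG00000100354, chromosome 22, 40044817 to 40335808, plus strand), the gene with the miR-28-3p seed match shown above, measured 25.8, 43.7 and 70.0 CPM in the lowest, median and highest scramble library and 29.3, 36.7 and 60.6 CPM in miR-28 libraries. It was lower with miR-28 in pairs 1, 3 and 6 and higher in pairs 2, 4 and 5. Its log2 fold change was -0.10 (SE 0.260 with batch, 0.131 with the block), with a limma adjusted p of 0.766 with the block, and it was 0.005 without pair 3. TNRC6B had the widest range of the set, 2.71-fold between the highest and the lowest library, against 1.40-fold for DROSHA. The third paralogue, TNRC6C, was lower in level, at 12.7 ± 7.52 and 10.6 ± 5.34 CPM (SD, 6 libraries each). Its log2 fold change was -0.16 (SE 0.127 with the block).

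Of the 10 members, 9 had a mean log2 difference below 0, as did 52.9% of all genes. The 9 include TNRC6A, whose value of -0.0002 was close to 0 and turned above 0 under 19 of 38 alternative settings. The median over the members was -0.07, and over all genes -0.01. No member had groups that did not overlap, against 0.0629% of all genes. None was lower in all 6 pairs, against 2.19% of genes, and none was higher in all 6, against 2.07%. Without pair 3 the median of the members was above 0, at 0.02. Without any other single pair it stayed below 0, between -0.13 without pair 2 and -0.05 without pair 6.

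All 10 members differed in the same direction within some pairs. In pair 2 all 10 were higher in the miR-28 library, with a median log2 difference of 0.24, while 48.0% of the 10388 genes with a mean of at least 5 CPM were higher there. In pair 3 all 10 were lower, with a median of -0.37, while 48.9% of those genes were lower. In pair 3 the differences ran from -0.02 for DGCR8 to -0.86 for DICER1, and in pair 2 from 0.08 for DGCR8 to 0.42 for DICER1. The median absolute log2 difference was 0.37 for the members and 0.34 for those genes in pair 3, and 0.24 and 0.12 in pair 2. Outside the set, AGO4 went the other way, from 41.8 CPM in scramble to 34.6 with miR-28 in pair 2 and from 64.0 to 95.4 in pair 3. PRKRA also did, from 99.4 to 91.7 and from 131.5 to 134.6 CPM. TNRC6C went with the members, from 7.22 to 7.76 and from 21.0 to 15.0 CPM. In pair 6 the members divided, with DICER1 at -0.48, TNRC6B at -0.53 and TNRC6A at -0.27, but DGCR8 at 0.31 and TARBP2 at 0.11. Pairs 1, 4 and 5 had member medians of -0.04, 0.004 and 0.02. The spread of all genes differed between pairs as well, with an SD of the log2 difference of 0.176 in pair 5, 0.202 in pair 2, 0.363 in pair 6 and 0.563 in pair 3. In pair 3 the 13 protein-coding genes of the mitochondrial genome took 6.90% of reads in the scramble library and 3.21% in its partner. The share of this in the differences of pair 3 was not tested.

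**Figure D3:**
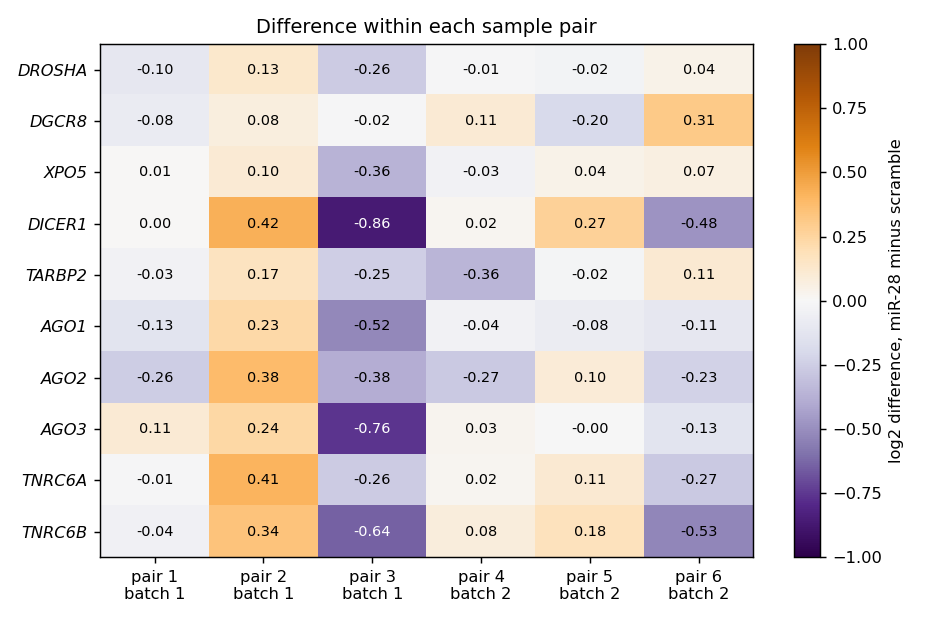
Log2 difference, miR-28 minus scramble, of each gene (rows) within each sample pair (columns, with the library batch), printed in the cells and shown by colour from purple (lower with miR-28) to orange (higher). The column of pair 2 is above 0 and that of pair 3 below 0 for all 10 genes, and DICER1 spans 0.42 to -0.86.

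No member passed the test for library batch, and neither did any other gene, so this does not set the members apart. Batch lies between pairs, with 3 pairs in each, and the fit counted both libraries of a pair as separate. The absence of a call therefore does not show that the batches were alike. The batch term of limma, batch 2 minus batch 1, ran from -0.19 for DGCR8 to 0.02 for AGO3. It called 0 of 10 members, where 0% of all genes passed, and no member had an unadjusted p under 0.05, against 0.291% of genes. Within batch 1 the differences between miR-28 and scramble ran from -0.14 for DICER1 to 0.05 for TNRC6A, and within batch 2 from -0.14 for AGO2 to 0.07 for DGCR8. The interaction of group and batch, fitted by limma with batch and group, ran from -0.09 for TNRC6A to 0.11 for XPO5. It called 0 members, where 0% of all genes passed, and none had an unadjusted p under 0.05, against 0.0707% of genes. With the pair block the interaction again called 0 members (0% of all genes), with 0 at an unadjusted p under 0.05, against 1.34% of genes. The smallest unadjusted p for a member in that limma fit was 0.489, for XPO5.

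Across the 12 libraries the machinery did not vary as 1 block. DICER1, AGO2, AGO3 and TNRC6B were highest in the scramble library of pair 3, by 0.57, 0.57, 0.69 and 0.77 above their own mean on the log2 scale, and TNRC6A was highest in both libraries of pair 4, by 0.51 and 0.53. These 5 genes were below their mean in both libraries of pair 5. DROSHA, DGCR8, XPO5 and AGO1 were above their mean in both libraries of pairs 1 and 5 and below it in both libraries of pairs 4 and 6. TARBP2 was also above its mean in pairs 1 and 5, and it was farthest below, at -0.53, in the miR-28 library of pair 4. The ratio of DICER1 to DROSHA in CPM ranged from 1.36 to 3.03 in scramble libraries and from 1.68 to 3.09 in miR-28 libraries, and that of DICER1 to XPO5 from 0.810 to 2.29 and from 0.950 to 1.98. The division into these 5 and the other 5 genes was made after their values were seen. The libraries also differed over all genes, where the first principal component, the axis of widest spread, held 67.6% of the variance. On it, pairs 1, 2 and 5 lay at 31.2 to 51.3 and pairs 3, 4 and 6 at -71.3 to -15.6. The division is therefore not shown to be particular to the machinery, and the part of this axis in it was not tested.

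Levels of long and short transcripts also moved among these libraries. Measured genes were cut into 5 classes of 2154 to 2156 genes by the length of their longest 3' UTR. The median deviation of the longest class minus that of the shortest was lowest in pair 5, at -0.31 with miR-28 and -0.27 with scramble. It reached 0.40 and 0.29 in the miR-28 and scramble libraries of pair 4, and it was 0.23 in the scramble library of pair 3 and 0.08 in its partner. DICER1, AGO2, AGO3 and TNRC6B belonged to the longest class, with 3' UTRs of 4270, 11888, 16755 and 12567 bases, and TNRC6A, at 2420 bases, to the next. AGO1 was also in the longest class, with 10921 bases, but was above its mean in both libraries of pair 5 and below it in both of pair 4. DROSHA, DGCR8, XPO5 and TARBP2 had 3' UTRs of 935, 1767, 1538 and 450 bases. The part of transcript length in these levels was not tested.

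**Figure D4:**
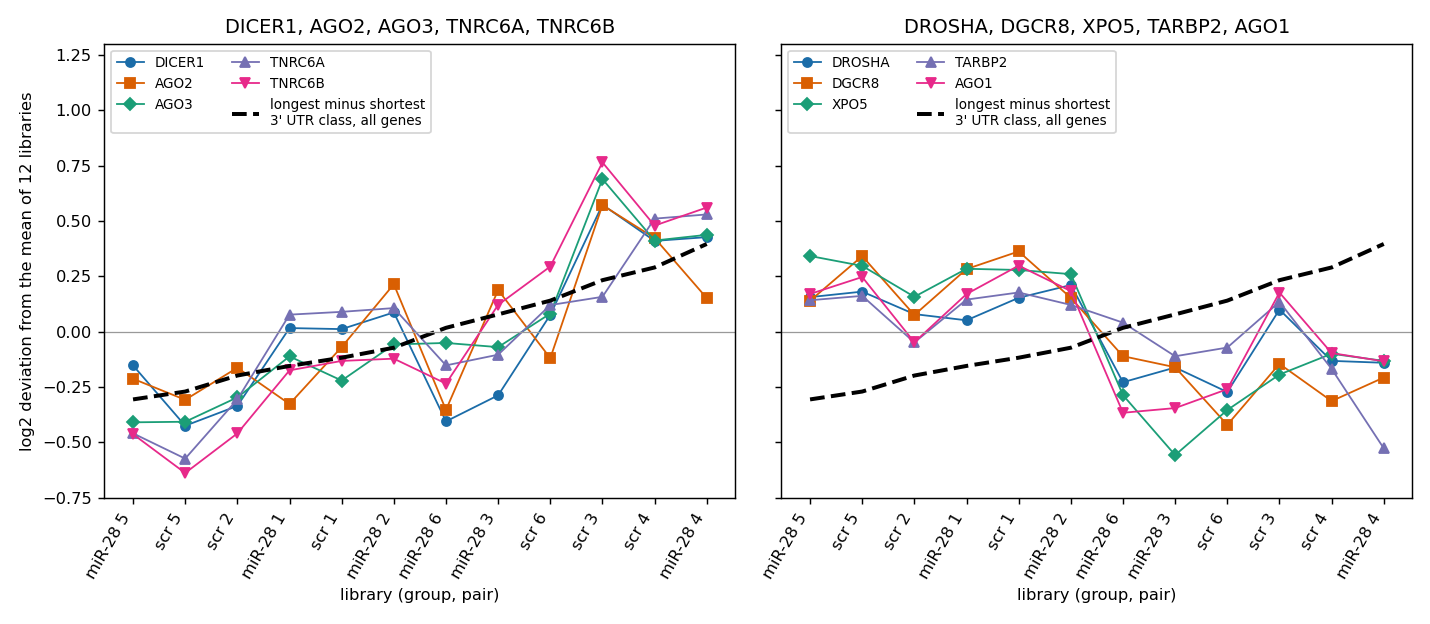
Log2 deviation of each gene from its own mean over 12 libraries (y axis) in each library (x axis, group and pair, ordered by the dashed line), with DICER1, AGO2, AGO3, TNRC6A and TNRC6B in the left panel and the other 5 genes in the right. The dashed line is the median deviation of all genes of the longest 3' UTR class minus that of the shortest, from -0.31 to 0.40. Genes of the left panel are mostly below 0 at its low end and above 0 at its high end, and most of the right panel's genes run the other way.

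Levels can be compared between genes only per length, here as CPM per kilobase of annotated exon. In scramble libraries XPO5 (15.2 ± 2.80, SD, n = 6) and DICER1 (14.8 ± 4.07) were the highest and overlapped, followed by DROSHA (10.7 ± 1.29), TNRC6A (10.1 ± 2.60) and TARBP2 (8.65 ± 0.886), whose ranges also overlapped. DGCR8 stood at 6.13 ± 1.43, with a lowest library of 4.49 that lay above the highest of AGO1, 2.95. AGO1 (2.50 ± 0.386), TNRC6B (2.25 ± 0.858) and AGO3 (2.13 ± 0.687) could not be ordered beyond their spread. AGO2 was the lowest member in 12 of 12 libraries, at 0.847 ± 0.236 in scramble, and its highest scramble library (1.21) lay below the lowest of TNRC6B (1.29) and AGO3 (1.49). XPO5 was the highest member in 7 libraries and DICER1 in 5. These levels depend on the exon length used: with the longest annotated transcript in place of all exons, TARBP2 stood at 19.0 ± 1.94 and moved from the fifth to the second place, and 4 of 10 members changed place.

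**Figure D5:**
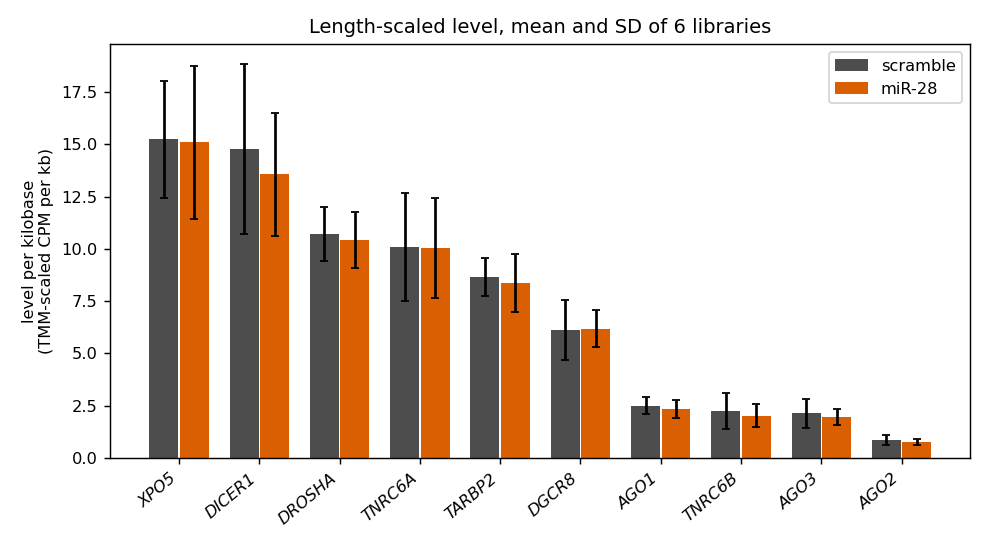
Mean level per kilobase of annotated exon (y axis, TMM-scaled CPM per kilobase, from 0) of each gene (x axis) in 6 scramble (grey) and 6 miR-28 (orange) libraries, with error bars of 1 SD. XPO5 and DICER1 stand at about 15 and AGO2 below 1 in both groups.

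Among the Argonautes, AGO4, which is no member of the set, took the largest part of the summed level per kilobase of the 4 genes. Its share was 55.2 ± 12.4% in scramble libraries and 57.0 ± 13.96% with miR-28 (SD, 6 libraries each). AGO1 held 21.5 ± 9.40% and 20.6 ± 9.40%, AGO3 16.6 ± 3.00% and 16.0 ± 3.49%, and AGO2 6.73 ± 1.48% and 6.37 ± 1.76%. These shares divide by all annotated exons, and AGO1, AGO2 and AGO3 have annotated 3' UTRs of up to 10921, 11888 and 16755 bases. In CPM the order changed between libraries. AGO4, AGO1 and AGO3 were at 27.7, 41.0 and 35.9 CPM in the scramble library of pair 1, and at 99.0, 27.5 and 44.5 in that of pair 6. AGO4 varied 3.75-fold over the libraries, more than any member, with a log2 fold change of 0.01 (SE 0.130 with the block) between groups. In pair 3 it was 64.0 CPM in the scramble and 95.4 CPM in the miR-28 library, while AGO3 was at 68.3 and 39.95 and AGO1 at 37.6 and 25.9 CPM.

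AGO4, AGO1 and AGO3 lie in that order on the plus strand of chromosome 1, with 11917 bases between AGO4 and AGO1 and 189 bases between the end of AGO1 and the start of AGO3, as GENCODE places them. The ratio of AGO3 to AGO1 in CPM ranged from 0.795 to 1.82 in scramble and from 0.838 to 1.90 in miR-28 libraries. The promoter windows of both genes, 250 bases before to 50 after the RefSeq start, are shown because these neighbours differed across libraries; capitals mark the GC box (GGGCGG on either strand). The RefSeq starts lie downstream of the GENCODE gene starts given above, so both windows fall within the genes as GENCODE bounds them.
AGO1, GRCh38.p14 chr1:35882959-35883258, plus strand: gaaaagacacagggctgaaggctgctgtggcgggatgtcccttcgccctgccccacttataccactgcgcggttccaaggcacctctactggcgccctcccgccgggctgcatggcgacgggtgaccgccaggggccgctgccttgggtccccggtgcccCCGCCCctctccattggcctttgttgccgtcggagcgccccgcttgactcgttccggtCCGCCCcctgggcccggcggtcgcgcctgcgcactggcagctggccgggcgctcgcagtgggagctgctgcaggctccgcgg
AGO3, GRCh38.p14 chr1:35930855-35931154, plus strand: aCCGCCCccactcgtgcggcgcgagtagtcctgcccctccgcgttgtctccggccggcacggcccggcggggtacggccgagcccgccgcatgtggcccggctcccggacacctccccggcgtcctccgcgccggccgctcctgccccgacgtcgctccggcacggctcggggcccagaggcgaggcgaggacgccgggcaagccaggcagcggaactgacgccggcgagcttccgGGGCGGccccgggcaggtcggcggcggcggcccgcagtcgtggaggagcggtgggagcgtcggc
Each window held 2 GC boxes, and 66.5% of 13589 promoter windows of measured genes held at least 1. The AGO1 window had 72.3% G and C and 30 CpG dinucleotides, and the AGO3 window 80.0% and 50, where the middle of the measured promoters ran from 16 to 34 CpG (quartiles). CCAAT, on either strand, was found in the AGO1 and not in the AGO3 window, and in 35.7% of measured promoters. Neither window held CACGTG, found in 9.63% of them, or TATAAA, found in 6.03%.

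Other genes of the pathway, taken from 6 lists, gave no call either. In limma, 0 of 78 measured genes passed in either direction with batch (0.0157% of all genes did) or with the block (0.0236%). With the block 1 of them, SRSF3, had an unadjusted p under 0.05, where 7.3% of all genes did, and with batch 0 did, against 0.33%. Over all genes, 52.9% had a log2 fold change below 0. Of 17 cofactors of the Microprocessor, 10 did, with a median of -0.12. Among the cofactors SRSF3, a splicing factor that binds primary microRNA transcripts, was at 0.25 (SE 0.261 with batch, 0.0904 with the block). Its limma adjusted p was 0.607 with the block, and it was higher in 5 of 6 pairs. SAFB2 was at -0.25 and METTL3, the methyltransferase that marks adenines in RNA, at -0.14. Of 12 export and loading factors 8 were below 0, with RAN, the GTPase that exportins use, at 0.12 and the chaperone gene HSP90AA1 at -0.17. Of 8 measured genes of precursor tailing and decay 5 were below 0, among them ZC3H12A at -0.15, and the deadenylase gene PARN was at 0.14. Of 28 silencing effectors 19 were below 0, with a median of -0.02, CNOT10 of the CCR4-NOT deadenylase at 0.13 and the cap-binding gene EIF4E2 at -0.19. Of 10 measured Argonaute regulators 8 were below 0. ZSWIM8, whose ubiquitin ligase degrades Argonaute on certain targets, was at -0.32 (SE 0.413 with batch, 0.148 with the block). Its limma adjusted p was 0.607 with the block, and it was lower in 5 of 6 pairs. The ZSWIM8 mean in scramble includes 95.8 CPM in pair 3, where the other scramble libraries reached at most 44.3. LIN28A, LIN28B, TRIM71 and AJUBA, also listed, were not among the measured genes.

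The genes whose profiles over the 12 libraries lay closest to those of DICER1 and AGO2 were found by the mean absolute difference of centred log2(CPM + 1) values. For DICER1 these were TAOK1 (0.0671), SON (0.0776) and PRRC2B (0.0859), and for AGO2 they were RNF169 (0.0937), ZMAT3 (0.108) and IKZF3 (0.112). The distances of AGO2 were larger than those of DICER1, although AGO2 itself varied less (SD over 12 libraries 0.306 against 0.338 on the log2 scale). AGO2 had 190 to 522 reads per library and DICER1 2952 to 6420, and the part of read depth in these distances was not tested.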

How the data were processed

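The 12 libraries were made from polyadenylated RNA of RFP+ Ramos cells. Per the submitters' processing notes, the tools were CASAVA 1.8.2, RSEM 1.2.3 and cutadapt and the build GRCh38, with no annotation release, strand setting or normalization given in the sources used here. The authors deposited 1 table of signal values (never negative), 1 column per library. All values were whole multiples of 1 read within 0.01 reads (100% of values; in 5 libraries the smallest value is 2 reads), and edgeR TMM factors of these reads matched those in the values to within 1.9e-15, so the deposited signal is CPM scaled by TMM. The lowest maximum of a gene was 1.15, so fainter genes were not analysed here. Of 12725 identifiers, 12528 were in the reference name table, and 11948 had a symbol other than the identifier itself in that table or, failing it, in GENCODE 29.

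The main test was limma 3.58.1 (trend) in R 4.3.3 on log2(value + 1) over all genes, with terms for group and library batch, with Benjamini-Hochberg adjustment at 0.05. Fold changes on this scale understate the change of low genes. Reads went to edgeR 4.0.16 (quasi-likelihood) and DESeq2 1.42.0 for comparison. Sample pairs are given by the labels. After group means were subtracted, paired libraries correlated across genes by 0.697 to 0.882. Among the 6 libraries of the other group, 12 of 12 libraries were most like their partner, so the pair was also fitted as a block. Libraries of the same group were not compared in this way. The median SE of genes with a mean of at least 5 was 0.201 with batch and 0.0944 with the block. Simulated data were run through limma and edgeR with batch and with the block, and through the limma interaction with batch. DESeq2 was run on them with the block only. The outcome is not reported here.

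Positions, exons and 3' UTRs came from GENCODE 29 (GRCh38), which may not be the authors' release, and sequences from RefSeq (GRCh38.p14). Promoter windows were found for 9 of the 10 members and mature sequences for miR-28-3p. Protein sequences were not analysed here. Reads of overlapping or antisense genes cannot be told apart without strand. The value of 3 reads covers counting error only. The members and lists were chosen with earlier results of these data known. Named genes were all members, AGO4, TNRC6C and PRKRA, at most 4 genes per further list, by smallest unadjusted p, of which examples are given, and the 3 nearest profiles of AGO2, DICER1 and DROSHA, the last not reported here. Alternatives covered scaling, pseudocount (0.1), filter, test, terms, pairs, libraries and exon length.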

Additional observations from a re-analysis of the deposited data

Results flagged for a closer look

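In groups of 6 libraries, a library stood apart where its gap to the nearest other as a share of the group's range exceeded Dixon's 95% critical value, which chance gives in about 1 of 20 groups. Of 66 groups of named genes examined, 2 held such a library. The AGO3 level of 57.2 CPM in the miR-28 library of pair 4 stood above the other miR-28 libraries, at 31.4 to 40.5 CPM, and its scramble partner was at 56.2 CPM. The ZSWIM8 level of 95.8 CPM in the scramble library of pair 3 stood above the other scramble libraries, at 17.2 to 44.3 CPM. The cause was not tested in either case.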

How the results depend on the processing

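No member was called under any of 38 alternatives, and the median log2 fold change of the members ranged from -0.13 to 0.02. The sign of single genes changed more often. AGO1 and AGO2 stayed below 0 under all 38, but came as close as -0.003 (without pairs 3 and 6) and -0.01 (without the scramble library of pair 3), while DICER1, AGO3, DROSHA and TNRC6B each turned above 0 under 5, TARBP2 under 1 and XPO5 under 9, TNRC6A under 19, and DGCR8 turned below 0 under 10. The count of all genes called, 2 in limma with batch, was 3 with the sample pair as replicate block. It was 0 without TMM scaling, 0 in edgeR with batch, 1 in edgeR with the block, 21 in DESeq2 with the block, and 0 in either library batch alone. Leaving out 1 pair or library gave 0 to 3. Without pairs 3 and 6 the count was 0 (batch) and 4 (block). The cause was not tested. The block changed no call of a member. Fits that left out pairs with the block were chosen after seeing the data. With the longest transcript as length, 4 members changed place in the order of levels. Protein features, planned, were not run. Depth was at least 190 reads per library for every member.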
